A study of Mus musculus with 9 samples.

Results

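Immune cells were looked for among sorted stromal cells of the mouse synovial joint. Barcodes with at least 500 genes, at least 1000 unique molecular identifiers (UMIs, the count of captured transcript molecules) and at most 10% mitochondrial UMIs were kept. A kept cell was counted as an immune cell where at least 2 of the 3 leukocyte transcripts Ptprc, Tyrobp and Laptm5 had a UMI. Of 4788 kept cells in 9 libraries, 104 (2.17%) met this rule, and 99 of the 104 came from injured joints. Clustering placed 66 of them in macrophage-like and 25 in neutrophil-like clusters, and 13 formed a cycling cluster that was left unnamed, in which 9 cells carried neutrophil granule genes.

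All mice carried Gdf5-Cre, a Cre-activated tdTomato reporter (Tom) and Pdgfrα-H2BGFP, and were 11 to 12 weeks old. Gdf5-Cre labels the descendants of cells that expressed Gdf5 in the embryonic joint interzone, and the Pdgfrα promoter drives a nuclear histone H2B-GFP fusion in fibroblasts, so neither reporter is intended to mark leukocytes. Live cells of collagenase-digested joints were sorted into Tom+ cells and Tom-GFP+ cells, and a gate on a leukocyte surface marker is not given in the sources used here. Naive mice gave 2 Tom+ and 1 Tom-GFP+ steady-state libraries. Mice taken 6 days after surgery on the right knee, in which the joint was opened and the trochlear cartilage scratched through its full thickness, gave 4 Tom+ and 2 Tom-GFP+ injured libraries. The 10x Genomics libraries were built from the 5′ ends of transcripts and held between 2866464 and 15033902 UMIs each, with 277 to 826 kept cells. Among the kept cells 12 barcode sequences were shared between libraries, and 0 of them belonged to an immune cell.

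Leukocytes are defined by the surface phosphatase CD45, which Ptprc encodes. Tyrobp encodes DAP12, the signalling adaptor of many activating receptors on myeloid cells, and Laptm5 encodes a lysosomal membrane protein of blood cells. In a healthy joint, resident macrophages form a layer in the synovial lining and lie between the vessels and fibroblasts below it, and they make complement C1q and clear debris through scavenger receptors. Neutrophils enter from the blood within hours of tissue damage, and carry preformed granules and large amounts of the calcium-binding proteins S100a8 and S100a9.

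The promoters of 2 rule markers and of 4 genes that parted the kinds are printed below, since 5′ libraries count transcripts from these start sites. Each window spans 250 bases before to 50 after the RefSeq start on GRCm38.p6, written 5′ to 3′ on the strand of the gene. Capitals mark the PU.1 core AGGAAG or its reverse complement in the windows of Ptprc, Laptm5, C1qb, C1qc and S100a8, and TTGCNNAA, a site for C/EBP factors, in that of S100a9. Ptprc lies at chr1:138062861-138175708 (minus strand), and the first of its 2 RefSeq starts was used, with the window chr1:138175256-138175555. Laptm5 lies at chr4:130913125-130936141 (plus), with the window chr4:130913066-130913365. C1qb (chr4:136880129-136886187, minus) and C1qc (chr4:136889804-136893065, minus) are neighbours, with the windows chr4:136886151-136886450 and chr4:136892865-136893164. S100a8 (chr3:90668978-90670035, plus) and S100a9 (chr3:90692632-90695721, minus) also lie side by side, with the windows chr3:90668821-90669120 and chr3:90695672-90695971. Tyrobp and C1qa had no entry.
Ptprc: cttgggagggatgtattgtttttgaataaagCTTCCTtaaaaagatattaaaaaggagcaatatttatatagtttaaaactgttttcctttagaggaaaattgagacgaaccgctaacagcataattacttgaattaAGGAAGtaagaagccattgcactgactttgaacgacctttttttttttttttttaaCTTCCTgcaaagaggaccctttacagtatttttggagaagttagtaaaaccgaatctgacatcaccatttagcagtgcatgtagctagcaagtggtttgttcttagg
Laptm5: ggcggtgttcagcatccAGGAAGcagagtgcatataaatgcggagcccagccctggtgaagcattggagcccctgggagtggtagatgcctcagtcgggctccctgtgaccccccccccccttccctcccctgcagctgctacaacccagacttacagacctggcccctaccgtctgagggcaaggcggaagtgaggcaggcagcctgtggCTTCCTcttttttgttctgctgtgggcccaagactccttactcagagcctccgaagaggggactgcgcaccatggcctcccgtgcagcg
C1qb: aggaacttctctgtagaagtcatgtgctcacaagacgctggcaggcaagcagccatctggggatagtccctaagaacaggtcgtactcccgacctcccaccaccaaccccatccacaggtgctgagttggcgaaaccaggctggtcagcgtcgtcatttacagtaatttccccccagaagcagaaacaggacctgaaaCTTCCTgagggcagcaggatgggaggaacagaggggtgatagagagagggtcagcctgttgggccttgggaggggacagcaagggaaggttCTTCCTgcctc
C1qc: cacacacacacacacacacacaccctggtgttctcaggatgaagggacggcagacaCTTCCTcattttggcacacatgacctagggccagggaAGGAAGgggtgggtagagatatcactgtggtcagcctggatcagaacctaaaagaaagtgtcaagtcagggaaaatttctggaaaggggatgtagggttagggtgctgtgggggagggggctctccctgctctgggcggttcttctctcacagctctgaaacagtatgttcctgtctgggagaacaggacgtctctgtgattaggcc
S100a8: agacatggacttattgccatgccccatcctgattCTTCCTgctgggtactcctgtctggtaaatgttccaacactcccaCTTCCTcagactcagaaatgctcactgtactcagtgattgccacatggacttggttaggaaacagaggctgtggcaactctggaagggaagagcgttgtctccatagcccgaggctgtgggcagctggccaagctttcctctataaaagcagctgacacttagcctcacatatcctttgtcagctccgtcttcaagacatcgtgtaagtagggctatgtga
S100a9: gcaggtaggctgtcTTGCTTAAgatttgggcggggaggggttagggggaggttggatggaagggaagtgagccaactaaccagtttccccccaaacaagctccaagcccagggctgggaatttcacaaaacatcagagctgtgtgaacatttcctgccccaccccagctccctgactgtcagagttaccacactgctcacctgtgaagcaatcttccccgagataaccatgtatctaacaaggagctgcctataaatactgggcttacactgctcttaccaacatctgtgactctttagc

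Over 32851 RefSeq promoter windows of the same length, 35.4% held AGGAAG and 10.8% held TTGCNNAA on either strand, and neither motif contains the other. Of 8 leukocyte genes with an entry, 6 held the PU.1 core and 2 the C/EBP site. A match is a run of letters and not a bound site.

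The values that chose the cells are given as a description. Tyrobp had 2948 UMIs in 102 of the 104 cells, Laptm5 680 UMIs in 98 cells and Ptprc 113 UMIs in 72 cells, and 64 cells had all 3. The other 40 cells had exactly 2 markers, with a median of 23 rule-marker UMIs, and sat just inside the rule. The 33 kept cells with exactly 1 marker sat just outside it, with a median of 1 rule-marker UMI. The step between these cells was also one of fibroblast transcripts. Cells with 1 marker had a median of 329 UMIs over 10 fibroblast genes, and cells with 2 or with 3 markers each had a median of 5.

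Leukocyte genes that the rule did not use were present in the same cells. Fcer1g, the signalling gamma chain of Fc receptors, was detected in 102 of 104 immune cells and in 19 of the 4684 other cells, at 3053 and 0.794 counts per 1000000 UMIs (CPM). Coro1a, an actin-binding protein of leukocytes, was detected in 97 immune cells and 39 other cells. Spi1, which encodes the myeloid transcription factor PU.1, was detected in 99 immune cells and in 0.193% of other cells that lacked endothelial markers. The other cells, whose median depth was 11983.5 UMIs, also held a few leukocyte-marker cells that the rule left out, and free RNA was not measured apart from them. Choosing cells by 2 of Fcer1g, Cd53 and Coro1a gave 106 cells, of which 100 were the same. The 4 cells that did not meet this second choice each had 2 rule markers, whereas all 64 cells with 3 rule markers met it.

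The immune cells were spread very unevenly over the libraries. In the Tom+ steady-state libraries 3 of 331 cells (0.906%, exact 95% binomial interval 0.187 to 2.63%) and 0 of 544 cells (0 to 0.676%, or up to 0.551% by the limit of 3 counts) were immune cells. The Tom-GFP+ steady-state library held 2 of 410 (0.488%). The 4 Tom+ injured libraries held 3 of 759 (0.395%), 8 of 826 (0.969%), 44 of 518 (8.49%, 6.24 to 11.2%) and 26 of 620 (4.19%, 2.76 to 6.08%). The 2 Tom-GFP+ injured libraries held 7 of 503 (1.39%) and 11 of 277 (3.97%). Tom+ injured 3 and 4 thus supplied 70 of all 104 cells (67.3%), while Tom+ injured 1 lay within the range of the steady-state libraries. These intervals cover counting error only.

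**Figure D1:**
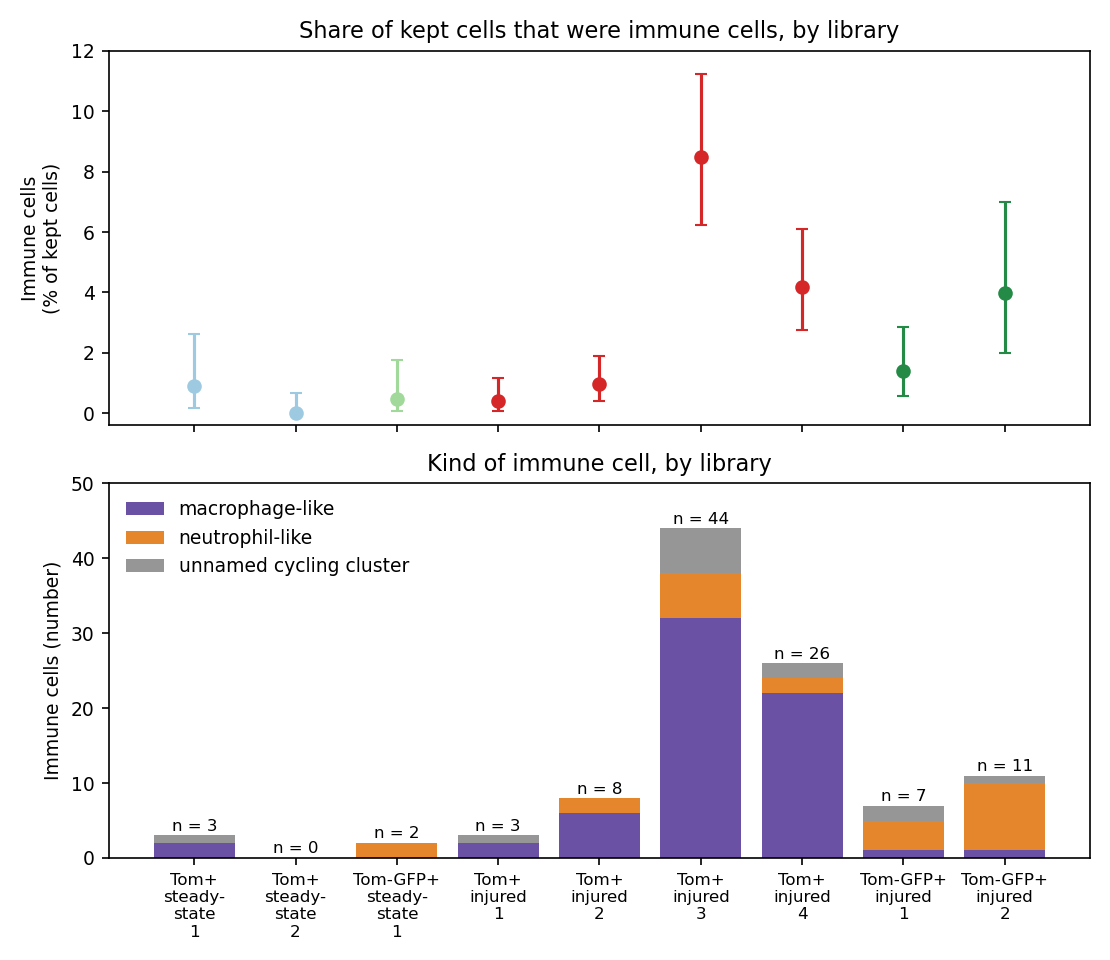
Upper panel, share of kept cells (%) that were immune cells in each of the 9 libraries, with exact 95% binomial intervals; lower panel, number of immune cells by kind. Tom+ injured 3 (44 cells) and 4 (26 cells) hold the largest numbers, which are mostly macrophage-like, although the share in Tom+ injured 4 (4.19%) is close to that in Tom-GFP+ injured 2 (3.97%), and the cells of the Tom-GFP+ injured libraries (7 and 11) are mostly neutrophil-like.

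Whether injury raised the share of immune cells was tested over libraries. In Tom+ libraries the share was 3.51% ± 3.72 (SD, n = 4) after injury and 0.453% ± 0.641 (SD, n = 2) in steady state, a difference of 3.06 percentage points that was smaller than the spread between injured libraries (exact permutation test, two-sided, p = 0.333, where 15 arrangements allow no p below 0.0667). With state permuted within each lineage over all 9 libraries the difference was 2.77 points (exact permutation p = 0.178, smallest possible 0.0222). Without Tom+ injured 3 and 4 the Tom+ difference was 0.229 points (exact permutation p = 0.667). The matrix files also fell into 2 formats. All steady-state libraries and Tom+ injured 1 had the older form, with 0.395% immune cells in the injured library, and the 5 injured libraries of the newer form had 0.969 to 8.49%. Within the older form there was 1 injured library, and the newer form held no steady-state library, so that format and injury cannot be told apart in the remaining libraries. By the ages that the study gives, the injured mice were also older, so age and injury cannot be told apart. Tom+ and Tom-GFP+ injured libraries had similar mean shares, 3.51% and 2.68% ± 1.82 (SD, n = 2), with a difference of 0.831 points (exact permutation p = 0.933, smallest possible 0.0667) that turned to -0.829 points without Tom+ injured 3 and to -0.458 points without Tom-GFP+ injured 1. The study describes the Tom-GFP+ libraries as coming from matched mice, but which Tom+ library each belongs to is not given in the sources used here, so the tests between lineages treated the libraries as independent. With libraries of the same number paired, the difference was -2.0 points (exact permutation p = 0.5).

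Clustering of the 104 cells gave 5 clusters. Clusters 1, 3 and 4 held 27, 20 and 19 cells, of which 26, 18 and 18 had at least 6 of 12 macrophage markers, and together they are the 66 cells called macrophage-like, which include single cells with other markers described below. Cluster 2 held 25 cells, each with at least 6 of 12 neutrophil markers. In cluster 5, 9 of 13 cells reached that number for neutrophils and 2 for macrophages, so the cluster was left unnamed. The 3 classes held the same cells at clustering resolutions of 0.6 and 1.5 and when all variable genes were used. Median depth was 9351.5 UMIs in macrophage-like, 3477 in neutrophil-like and 15907 in unnamed cells.

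The division can be seen without clustering from 2 groups of neighbouring genes. At least 2 of C1qa, C1qb and C1qc, the chains of the first complement component, were detected in 62 cells. At least 10 UMIs each of S100a8 and S100a9 were counted in 34 cells. No cell met both criteria, and 8 met neither. C1qb was detected in 60 of 66 macrophage-like cells at 5967 CPM, in 0 of 25 neutrophil-like cells and in 0.965% of other cells. S100a8 was detected in all 25 neutrophil-like cells at 105234 CPM, in 4 macrophage-like cells at 5.88 CPM and in 0.922% of other cells. Lyz2, the lysozyme of all phagocytes, was shared, with 65 macrophage-like cells at 34111 CPM and 24 neutrophil-like cells at 25947 CPM.

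**Figure D2:**
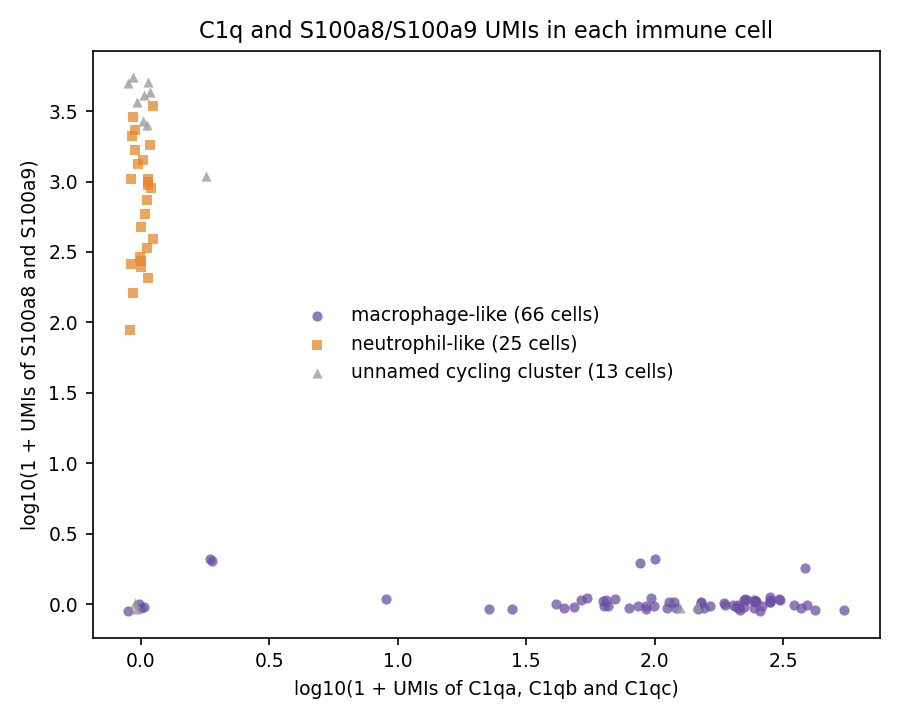
Summed UMIs of C1qa, C1qb and C1qc (x axis) against summed UMIs of S100a8 and S100a9 (y axis) in each of the 104 immune cells, both as log10(1 + UMIs) with a small random offset. The 62 C1q cells lie along the x axis and the 34 S100a8 and S100a9 cells along the y axis, with no cell high on both.

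Macrophage-like cells carried the receptors and enzymes of tissue phagocytes. Apoe, the lipid carrier of foamy and resident macrophages, was detected in 62 of 66 cells at 24576 CPM against 36.6 CPM in neutrophil-like cells. Trem2, a lipid-sensing receptor that signals through DAP12, was detected in 61 macrophage-like cells at 1469 CPM and in 0 of 25 neutrophil-like cells. The latter allows a share of up to 12.0% of cells with a UMI, at a median depth of 3477 UMIs. Per library Trem2 reached 909, 1671 and 1466 CPM in the macrophage-like cells of Tom+ injured 2, 3 and 4, so that it was high in each of the 3 libraries with more than 2 such cells. Among the other macrophage markers Ms4a7 was found in 62 cells, Cd68 in 61, Csf1r, the receptor for the survival factor CSF1, in 59, and Mrc1, the mannose receptor CD206, in 49. Folr2 and Cbr2, genes of resident interstitial macrophages, were found in 58 and 54 cells. Of the list for lining macrophages, Trem2 was the most abundant gene, and Vsig4, a complement receptor, was found in 13 cells.

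The 3 macrophage-like clusters differed in their leading genes, which are given as a description since they were computed on the cells that were clustered. Cluster 1 was led by Mcub, Ms4a6d, Polr2e, Mrps6 and Dpep2, at 3.09 to 3.69 times the mean level of the other immune cells, with Ms4a6c in all 27 cells and Ms4a7 in 26. Cluster 4 was led by Lhfpl2, Kcnn4, Rgs1, Tnf, Fabp5, Lgals3, Id2 and Ccl4, with Tnf in 15 of 19 cells and the fatty acid carrier Fabp5 in 18. Ccl4 was in 14 cells, but 213 of its 448 UMIs in the cluster lay in the single cell with basophil genes described below. Cluster 3 was led by Col1a2, Lyve1, Sparc, Lum, Mrc1 and F13a1, so that 3 of its 10 leading genes (Col1a2, Sparc and Lum) were on the fibroblast list and 4 (Lyve1, Mrc1, F13a1 and Sparc, which is on both) on the macrophage lists. Its 20 cells held all 4 immune cells with 100 or more fibroblast-list UMIs. Without those cells its leading genes were Cd163, C4b, Ednrb, Ccl8, Lyve1, Ccl24 and Mrc1, with the haemoglobin scavenger receptor Cd163 in 10 of 16 cells and the hyaluronan receptor Lyve1 in 11. Of these genes, Cd163 and Lyve1 were on the list for resident interstitial macrophages and Mrc1 on the macrophage list. The others were on no cell type list. Ccl8 and Ccl24 were on the chemokine list, and Cd163, Ccl24 and Mrc1 on the list for alternative activation. Timd4, a phosphatidylserine receptor of long-lived resident macrophages, was found in 3 cells, all in cluster 3.

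**Figure D3:**
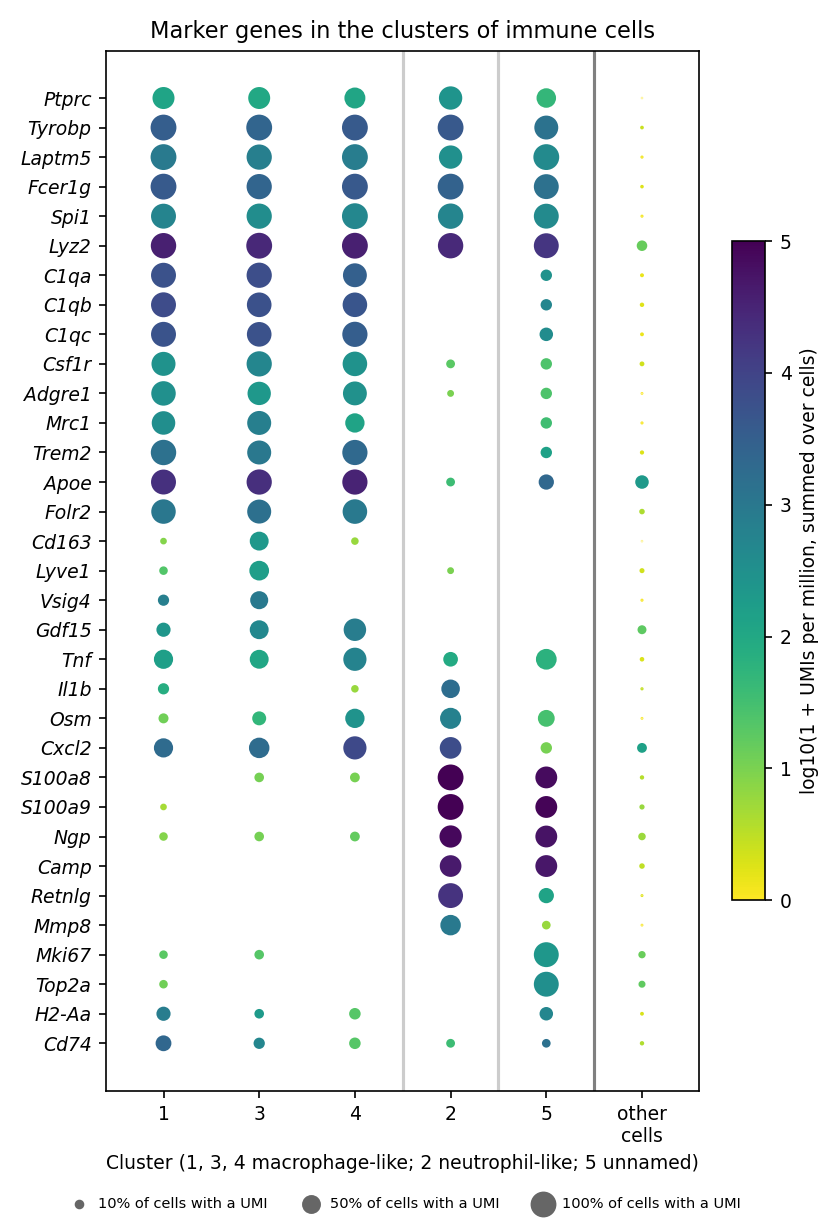
Marker genes in the 5 clusters of immune cells and in other cells; dot size gives the share of cells with a UMI (%) and colour the summed level as log10(CPM + 1). C1q, Apoe and Trem2 mark clusters 1, 3 and 4, S100a8, S100a9 and Retnlg mark cluster 2, and cell cycle genes mark cluster 5.

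Neutrophil-like cells were led by Retnlg, Mmp8, Hcar2, Slpi, Trem1, Mxd1, G0s2, Thbs1, Slc7a11 and Il1r2. Retnlg, a resistin-like protein of mature mouse neutrophils, was detected in 23 of 25 cells at 18552 CPM and in 0 macrophage-like cells. S100a9 was detected in all 25 at 130962 CPM. Mmp8 and Mmp9, the collagenase and gelatinase of neutrophil granules, were found in 15 and 21 cells. The secondary granule genes Ngp (18 cells, 78171 CPM), Camp (17 cells, 45533 CPM) and Ltf (16 cells, 11257 CPM) were not in every cell, and Cxcr2, the receptor that guides mature neutrophils, was detected in 11. Hdc, the histamine-forming enzyme that was listed for mast cells, was found in 23 of the 25 and in 2 macrophage-like cells.

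The 13 cells of cluster 5 had cell cycle genes in common. Birc5 and Cdk1 were detected in all 13 cells, Top2a and Mki67 in 12, and Ube2c in 12, against 3, 5, 2 and 4 of 66 macrophage-like cells for Birc5, Cdk1, Top2a and Mki67. In 9 of the 13 cells the same transcripts stood beside neutrophil granule genes, with Ngp at 57547 CPM, Camp at 49304 CPM and Chil3 at 6426 CPM over the cluster. Elane, the elastase of primary granules that is made before neutrophils leave the bone marrow, was detected in 3 cells of the cluster. Retnlg was detected in 4 cells at 125 CPM, far below the level in neutrophil-like cells. Of the other 4 cells, 2 had C1q and 2 had neither C1q nor S100a8 and S100a9. Their median depth of 15907 UMIs was the highest of the 3 classes and 0 of the 13 were among the highest 5% of doublet scores in their library.

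The defining genes of lymphoid and several other lineages were at or near 0, although other genes of their lists were detected. Cd3e, Cd3g, Trbc1, Cd8a and Cd5 had no UMI in any immune cell, and 8 of the 13 T cell genes were detected, with Trac and Trbc2 at 1 UMI each. Il7r, the most abundant T cell gene, had 35 UMIs in 11 cells, none of them neutrophil-like. Cd3d had 28 UMIs in 16 cells, 10 of them neutrophil-like and 6 in cluster 5, and none macrophage-like. Among natural killer genes Nkg7 was seen in 4 cells of cluster 5, and Ncr1, Klrb1c, Gzma, Gzmb, Prf1, Eomes and Klre1 had no UMI. Of 12 conventional dendritic cell genes 8 were detected with 190 UMIs in all, led by Clec10a (59 UMIs in 21 cells), and the list stood at 304 and 306 CPM in clusters 1 and 3 against 102 CPM in other cells. The dendritic cell genes Flt3, Xcr1, Clec9a and Ccr7, the eosinophil genes Siglecf, Il5ra, Prg2 and Epx, and the regulatory T cell gene Foxp3 were also at 0. A gene at 0 in 104 cells allows a share of up to 2.88% of cells with a UMI.

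Some single cells carried the markers of rarer kinds, and were picked after their values had been seen. In Tom+ injured 3, 1 cell of cluster 5 had 22 UMIs of Cd79a, 15 of Cd79b, 29 of Vpreb3, 22 of Ebf1 and 2 of Pax5, genes of developing B cells, with Il7r at 12 UMIs and Tyrobp at 0. In Tom+ steady-state 1, 1 cell had Il4 (8 UMIs), Cd200r3 (4), Fcer1a (3), Cpa3 (3), Ms4a2 (2), Mcpt8 (1) and Hdc (13), genes of basophils and mast cells, and no C1q, although clustering placed it in cluster 4. In Tom+ injured 2, 1 cell had Cd74 at 277 UMIs, H2-Aa at 144 and Cd209a at 24, which are genes of antigen-presenting and monocyte-derived dendritic cells, and no C1q. Each of these kinds rested on 1 cell, and no share was computed for them.

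Inflammatory mediators were divided between the kinds. Of 10 cytokine genes, Il1b was detected in 12 of 25 neutrophil-like cells at 1739 CPM and in 5 of 66 macrophage-like cells at 32.3 CPM. Tnf was detected in 39 macrophage-like cells at 268 CPM and in 7 neutrophil-like cells at 91.5 CPM. Osm, a cytokine to which fibroblasts respond, was detected in 16 neutrophil-like cells at 677 CPM and in 18 macrophage-like cells at 98.5 CPM. Il12b had no UMI. Pooled over libraries, neutrophil-like cells were thus higher in Il1b and Osm per UMI, and macrophage-like cells in Tnf. The kinds came from different libraries, with 13 of 25 neutrophil-like and 2 of 66 macrophage-like cells from Tom-GFP+ injured libraries. A comparison of the kinds within libraries is not given here. In Tom+ injured 2, 3 and 4, Tnf stood at 177, 224 and 361 CPM in the macrophage-like cells, and Il1b at 310, 15.6 and 7.76 CPM, where 1 of the 6 cells of Tom+ injured 2 held 14 of the 22 Il1b UMIs of all macrophage-like cells. Tgfb1 was detected in 52 macrophage-like cells at 225 CPM, and other cells also carried it (44.1% of cells).

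Among chemokines, Pf4 (55 cells, 1045 CPM) and Ccl9 (46 cells, 323 CPM) were found in macrophage-like cells and in 0 neutrophil-like cells. Ccl6 was found in 56 macrophage-like cells at 1369 CPM and in 11 neutrophil-like cells at 805 CPM. Cxcl2, which attracts neutrophils, was higher per UMI in neutrophil-like cells when pooled over libraries. It stood at 7002 CPM in 17 of these cells, 3699 CPM in 41 macrophage-like cells and 137 CPM in other cells. Ccl5 had no UMI in any immune cell. The receptors were also divided, with Cx3cr1 and Ccr2 in 27 and 13 macrophage-like cells and in 0 neutrophil-like cells, and Ccr1 in 17 and 13 cells.

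Phagocytic and lysosomal genes were mainly in macrophage-like cells. Ctsb, a lysosomal cysteine protease, was at 9893 CPM in macrophage-like cells, 165 CPM in neutrophil-like cells and 1459 CPM in other cells. Ctss, the cathepsin of antigen-presenting cells, was in 63 of 66 macrophage-like cells at 2679 CPM and in 0 neutrophil-like cells. The low-affinity Fc receptors Fcgr3 and Fcgr2b were in 63 and 61 macrophage-like cells and in 10 and 5 neutrophil-like cells. The scavenger receptors Stab1, Cd36 and Msr1 were in 55, 47 and 40 macrophage-like cells and in 0 neutrophil-like cells. Of the 9 genes listed for alternative activation, 4 were each detected in at least 10% of macrophage-like cells. Mrc1, Cd163 and Ccl24, described above for cluster 3, are on this list. Chil3 was in 0 macrophage-like cells, 13 neutrophil-like cells and 9 cells of cluster 5, and Retnla, a gene induced by interleukin-4, had no UMI.

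Growth factors listed as released by leukocytes were found at moderate levels. Gdf15 was in 31 macrophage-like cells at 473 CPM and in 0 neutrophil-like cells. Igf1 was in 47 macrophage-like cells at 175 CPM, below the 565 CPM of other cells, and Pdgfb was in 15 macrophage-like cells against 0.150% of other cells. Interferon response genes were sparse, with Isg15 in 13 macrophage-like and 4 neutrophil-like cells. Of the class II genes, Cd74 was in 15 macrophage-like cells and H2-Ab1 in 16, a minority for each gene. The median number of the 7 class II genes per cell was 1 in clusters 1 and 4 and 0.5 in cluster 3. Together the 7 genes stood at 3838 CPM in cluster 1, 936 CPM in cluster 3 and 157 CPM in cluster 4.

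The reporters of the sort were compared with those of the other cells of the same libraries. tdTom UMIs were few in immune cells. In the Tom+ libraries, 12 of 84 immune cells (14.3%) had a tdTom UMI at a median depth of 9324.5 UMIs, against 94.5% of 3492 other cells at 12449 UMIs. Per 10000 UMIs tdTom was 0.190 in immune cells, 4.69 in other cells and 1.78 in 22 cells with endothelial markers. Other cells of the Tom-GFP+ libraries, which were sorted as Tom-, had a tdTom UMI in 6.15% of cells at 10255 UMIs and a level of 0.0604 per 10000. H2BeGFP behaved otherwise, with UMIs in 76 of 84 immune cells (90.5%) of the Tom+ libraries and a level of 5.6 per 10000 UMIs against 2.43 in other cells.

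Library by library, H2BeGFP per 10000 UMIs was 10.1 in immune cells and 3.68 in other cells of Tom+ steady-state 1. In Tom+ injured 1, 2, 3 and 4 it was 0.305, 2.75, 6.75 and 4.66 in immune cells and 1.51, 2.20, 3.34 and 2.62 in other cells. In the Tom-GFP+ libraries it was 10.2 and 6.92 in steady state, 4.21 and 5.63 in injured 1, and 6.19 and 5.40 in injured 2. It was higher in immune cells in 4 of 5 Tom+ and in 2 of 3 Tom-GFP+ libraries, whereas tdTom was lower in immune cells in all 5 Tom+ libraries. Some of these libraries held few immune cells, with 3 each in Tom+ steady-state 1 and Tom+ injured 1 and 2 in the Tom-GFP+ steady-state library. In the 3 Tom-GFP+ libraries, sorted as Tom-, the 20 immune cells had no tdTom UMI. Pooled over libraries, H2BeGFP was 8.97 per 10000 UMIs in neutrophil-like, 6.12 in macrophage-like and 2.21 in cluster 5 cells. The kinds came from different libraries, whose levels differed as above, so these pooled values do not rank the kinds. The endogenous Pdgfra transcript was seen in 3 immune cells (5 UMIs) and in 78.7% of other cells. The part of free RNA and of doublets in these levels was not tested.

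**Figure D4:**
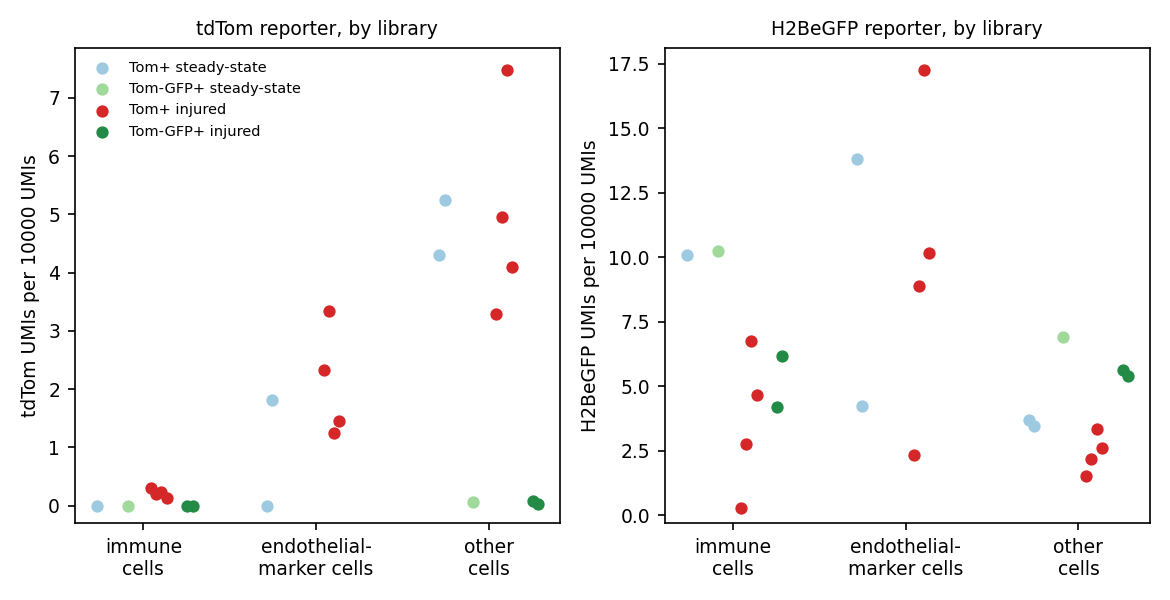
tdTom (left) and H2BeGFP (right) UMIs per 10000 UMIs of the cell class, 1 point per library, in immune cells, endothelial-marker cells and other cells, coloured by group. In Tom+ libraries tdTom of immune cells lies near 0 in each library, and H2BeGFP of immune cells lies above that of other cells in 4 of 5 libraries.

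Fibroblast transcripts were low in nearly all immune cells. Over the 10 fibroblast genes the level was 18.1 per 10000 UMIs in immune cells and 440 in other cells, with Sparc the most abundant of the list. The median immune cell had 5 such UMIs and 100 of the 104 had at most 29. The remaining 4 had 118, 381, 146 and 626 UMIs, in Tom+ injured 1, 2 and 4 and in Tom-GFP+ injured 2, and without them the level in immune cells was 5.74. The cell of Tom-GFP+ injured 2 had only 1 UMI each of Ptprc and Tyrobp beside 222 of Sparc and 94 of Col1a1. The cell of Tom+ injured 4 also had 12 UMIs of Pecam1, 12 of Vwf, 71 of Tagln and 27 of Rgs5, genes of vessel wall cells. By the doublet score, 3 immune cells (2.88%) were in the highest 5% of their library, against 3.29% of other cells.

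The kinds were not spread alike over the sorted lineages. Injured libraries with at least 5 immune cells were compared, which left out Tom+ injured 1. In Tom+ injured 2, 3 and 4, 75%, 72.7% and 84.6% of immune cells were macrophage-like, and in Tom-GFP+ injured 1 and 2, 14.3% and 9.09%. Neutrophil-like cells made 25.0%, 13.6% and 7.69% of the Tom+ and 57.1% and 81.8% of the Tom-GFP+ immune cells. The lineages did not overlap for either kind. The mean was 77.4% ± 6.31 (SD, n = 3) against 11.7% ± 3.67 (SD, n = 2) for macrophage-like cells, and 15.4% ± 8.79 against 69.5% ± 17.4 for neutrophil-like cells (exact permutation test, two-sided, p = 0.1 for both and adjusted p = 0.15 over 3 classes, where 0.1 is the smallest p of the 10 arrangements). The unnamed class was 7.11% ± 6.84 in Tom+ and 18.8% ± 13.8 in Tom-GFP+ libraries (exact permutation p = 0.4). Only 2 macrophage-like cells came from the Tom-GFP+ injured libraries, and 1 of them was the cell with 626 fibroblast UMIs.

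The same order held by genes and by single clusters. C1q was detected in 50.0%, 75% and 76.9% of the immune cells of Tom+ injured 2, 3 and 4 and in 14.3% and 0% of those of Tom-GFP+ injured 1 and 2. S100a8 and S100a9 were counted in 25.0%, 20.5% and 15.4% against 85.7% and 90.9%. All 27 cells of cluster 1 were in Tom+ injured libraries. Cluster 3 made 25.0%, 20.5% and 26.9% of immune cells against 0% and 9.09%, and cluster 4 made 0%, 18.2% and 26.9% against 14.3% and 0%. Cluster 1 made 50.0%, 34.1% and 30.8% of immune cells against 0% and 0%. Tom+ injured 1 held 0 of its 3 immune cells in cluster 1. Among the 5 libraries compared, the lineages did not overlap in clusters 1 and 3, and overlapped in cluster 4 and in the unnamed cluster 5 (0%, 13.6% and 7.69% against 28.6% and 9.09%). As a share of all kept cells, neutrophil-like cells were 0.242%, 1.16% and 0.323% in the Tom+ and 0.795% and 3.25% in the Tom-GFP+ libraries, which do overlap. Macrophage-like cells were 0.726%, 6.18% and 3.55% of kept cells in those Tom+ libraries against 0.199% and 0.361% in Tom-GFP+ injured 1 and 2, which do not overlap. Tom+ injured 1, with 3 immune cells, stood at 0.264%, between the 2 Tom-GFP+ values. Over all injured libraries the lineages thus overlap in this share.

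Genes were compared between the lineages on UMIs summed over the immune cells of each injured library with at least 5 such cells, which left 3 Tom+ and 2 Tom-GFP+ libraries with 50832, 425053, 306708, 54597 and 95299 UMIs. These sums mix the kinds, whose shares differed as above. Of 1458 genes tested, 200 (13.7%) passed a false discovery rate of 0.05 in edgeR's quasi-likelihood test, 55 (3.77%) higher and 145 (9.95%) lower in Tom+ libraries. Without Tom+ injured 3 or without Tom+ injured 4 no gene passed, with 291 and 289 genes at an unadjusted p under 0.05 in edgeR, so the number of calls rested on having both libraries. Without a filter on low counts 488 of 13864 genes passed in edgeR, 282 higher and 206 lower in Tom+ libraries. Without the 4 cells of 100 or more fibroblast UMIs 258 of 1173 genes passed, 104 higher and 154 lower. The calls also changed when a Tom-GFP+ injured library was left out, which leaves 1 library in that group. Over neutrophil-like cells alone, with 2 to 9 such cells in each library, 0 of 171 genes passed in edgeR and 6 had an unadjusted p under 0.05. Macrophage-like cells alone were not compared, as each Tom-GFP+ injured library held 1 of them.

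The genes with the largest higher calls in the Tom+ sums included chemokines and scavenger receptors that were found in macrophage-like cells. Ccl7, a monocyte-attracting chemokine, had 10, 99 and 199 UMIs in the 3 Tom+ samples and none in either Tom-GFP+ sample, which makes it at least 19.7-fold higher against a floor of 3 UMIs over the group (edgeR adjusted p = 0.0332). Tom+ injured 4 held 199 of the 308 Ccl7 UMIs, at 684 CPM against 215 and 244 CPM in Tom+ injured 2 and 3. The size of this bound thus rests largely on Tom+ injured 4. By the same floor Cd36, a fatty acid scavenger receptor, was at least 10.8-fold higher, P2ry6, a receptor for nucleotides from damaged cells, at least 8.75-fold, Ifi207 7.79-fold, Msr1 6.38-fold and Hal 6.07-fold. Folr2 was at 729, 919 and 1289 CPM against 53.3 and 0 CPM (log2 fold change 5.43, SE 0.87, edgeR adjusted p = 0.0168). Fabp5, a fatty acid carrier, was at 1888, 904 and 856 CPM against 79.9 and 17.8 CPM (log2 fold change 4.73, SE 0.75, edgeR adjusted p = 0.0168). These genes were chosen by the size of their difference between these libraries, so the separation of the libraries is a description only. Ccl9 and Pf4 were higher by 4.46 and 4.32 on the log2 scale.

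The genes with the largest lower calls in the Tom+ sums included several that are known from neutrophils. Stfa2l1, a cysteine protease inhibitor of granulocytes, was at 0, 12.3 and 0 CPM against 266 and 480 CPM (log2 fold change -5.72, SE 0.76, edgeR adjusted p = 0.0147). Padi4, the enzyme that citrullinates histones in neutrophils, was at 0, 27.2 and 17.2 CPM against 293 and 320 CPM (log2 fold change -3.85, SE 0.54, edgeR adjusted p = 0.0147). Trem1, an amplifying receptor of neutrophils, was at 0, 61.7 and 20.6 CPM against 533 and 391 CPM (log2 fold change -3.52, SE 0.60, edgeR adjusted p = 0.0185). The gap between the libraries in these genes again follows from how the genes were chosen. Samsn1, Rflnb, Mrgpra2b, C3, Orm1, Mgst2 and Itgb2l fell by 3.5 to 3.88 on the log2 scale. S100a8 was at 16711, 9537 and 14301 CPM against 91941 and 184453 CPM (log2 fold change -3.35, edgeR adjusted p = 0.0147).

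By list, 8 of 10 tested neutrophil genes were lower in Tom+ sums (background 9.95%) and none higher, with a median log2 fold change of -3.12 against 0.07 over all genes tested. The called genes were S100a8, S100a9, Ltf, Ngp, Mmp8, Camp, Retnlg and G0s2. Of 11 tested macrophage genes only Cd68 was called higher (background 3.77%), and the list had a median of 1.92. C1qb stood at 3518, 5722 and 4881 CPM against 2532 and 0 CPM and did not pass (edgeR adjusted p = 0.409). Of the resident interstitial macrophage list 2 of 4 tested genes were higher (Folr2 and F13a1), of chemokines 4 of 11 (Pf4, Ccl9, Ccl7 and Cxcl16) and of scavenger receptors 3 of 9 (Cd36, Stab1 and Msr1), with none lower. The cathepsins Ctsl, Ctsd and Ctsb were also higher. Il1b and Osm were the 2 of 4 tested cytokines that fell. Of 10 leukocyte genes that the rule did not use, Cd48 was higher and Arhgdib, Rac2, Coro1a and Cd52 were lower, and of 5 tested monocyte genes Hp and Ly6c2 were lower. None of 10 immediate early genes, which can rise during tissue digestion, passed in edgeR, with a median of 0.07, and none of 7 tested fibroblast genes passed, with a median of -1.27. H2BeGFP had a log2 fold change of -0.71 and did not pass.

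The 5 steady-state cells did not form a kind of their own. In Tom+ steady-state 1, beside the cell with basophil genes, 1 cell had 47 UMIs of C1qa, 45 of C1qb, 43 of C1qc and 219 of Lyz2, and 1 cycling cell of 15907 UMIs had 3239 UMIs of S100a8, 2309 of S100a9 and 790 of Ngp. In the Tom-GFP+ steady-state library both cells were neutrophil-like, with 244 and 437 UMIs of S100a8 and 18 and 180 of Retnlg. Both neutrophil and macrophage genes were thus found in steady-state libraries, the former in 3 cells and C1q in 1, and no test between states was made within a kind.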

How the data were processed

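Single-cell 5′ libraries (10x Genomics) of sorted joint cells were sequenced on a NextSeq 500. The deposited matrices hold UMI counts per gene and cell, not normalised, which the authors made with Cell Ranger on GRCm38.p6 per the submitters' processing notes; 5 of the 9 matrix headers name software version 3.0.2, and the version behind the other files is not given in the sources used here. Samples were grouped by their labels, and libraries served as replicates, so that p-values measure the spread between libraries.

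Cells were filtered as stated in the report. Shares of immune cells were compared by two-sided exact permutation over libraries (scipy 1.17.1), with exact binomial intervals at 95%. The immune cells were normalised to 10000 UMIs, and 1000 variable genes without fibroblast genes and reporters, 10 principal components and 10 neighbours went into Leiden clustering at resolution 1 (scanpy 1.11.5, leidenalg 0.10.2). A cluster was named where at least 75% of its cells had at least 6 markers of a 12-gene list, a threshold set after the data had been seen. Leading genes were ranked by fold over the other immune cells (pseudocount 10 CPM) among genes detected in at least 50% of the cluster. Doublets were not removed; the cells with the highest 5% of Scrublet scores in each library were left out as an alternative. UMIs summed per library with at least 5 immune cells were tested with edgeR 4.0.16 in R 4.3.3 (TMM, filterByExpr, quasi-likelihood test, Benjamini-Hochberg adjustment). The scripts were tested on simulated data.

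The members, lists and tests were chosen with earlier results of these data known. Genes named were the rule markers, markers of the naming lists and the most abundant gene of each list, up to 10 leading genes per cluster, up to 10 genes in each direction by size of log2 fold change at a false discovery rate of 0.05, the 3 most abundant genes of each gene group, and the reporters and fibroblast genes. Other genes, and all single cells, were picked after their values had been seen. Some genes are not reported here.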

Additional observations from a re-analysis of the deposited data

Results flagged for a closer look

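Outside the kept cells, 7 barcodes of the injured libraries held at least 2 of the 3 rule markers but failed the filter on genes, UMIs or mitochondrial share. They were looked at because no main comparison used these data. In injured libraries 367 barcodes failed. For comparison, 81 of 2723 kept cells in Tom+ injured and 18 of 780 in Tom-GFP+ injured libraries held 2 markers, which is no smaller a share. In steady-state libraries 6 barcodes failed and 0 of those 6 held 2 markers, too few to compare the states. The 7 barcodes entered no share or comparison under the main filter. The filters compared below include a looser one of at least 200 genes, 500 UMIs and at most 20% mitochondrial UMIs. Under it Tom+ injured 2, 3 and 4 and Tom-GFP+ injured 1 held 10, 46, 28 and 8 immune cells, against 8, 44, 26 and 7. The barcodes thus entered the shares and tests of that filter. Of 12 group values checked for an outlying library, 0 passed the check.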

How the results depend on the processing

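Under other filters on cells, all 3 markers, other marker genes, thinning to 3000 UMIs, removal of high doublet scores and removal of the 4 cells with 100 or more fibroblast UMIs, each difference in the share of immune cells kept its direction and its side of the threshold. With all 3 markers the sizes were 1.79 points for injury in Tom+, 1.70 over both lineages and 0.337 between the lineages, and the lineage difference was 1.36 points under the strict filter. The difference between Tom+ and Tom-GFP+ injured libraries (0.831 points) turned to -2.0 without Tom+ injured 3 and 4 (an alternative added after seeing the data) and also under the replicate block, to -0.829 without Tom+ injured 3 and to -0.458 without Tom-GFP+ injured 1, and ranged from -0.829 to 2.12 over the libraries left out in turn. The injury difference ranged from 1.40 to 4.10 points in Tom+ libraries and from 1.70 to 3.38 over both lineages. The composition differences were the same in all clusterings and ranged from 62.2 to 68.4 points for macrophage-like, -66.4 to -41.7 for neutrophil-like and -21.5 to -1.98 for unnamed cells over the libraries left out.

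The number of genes called between the lineages was 200, and 488 (282 higher and 206 lower in Tom+) without a filter on low counts, of 13864 genes tested and with 140 shared. DESeq2 1.42.0 called 239, of which 186 were shared. It was 0 without Tom+ injured 3, 0 without Tom+ injured 4, 65 without Tom-GFP+ injured 2 and 256 without Tom-GFP+ injured 1, and 0 over neutrophil-like cells only, where 171 genes in few cells were tested; the cause of the other changes was not tested. Of the 20 named genes, none that could be tested changed direction under these settings, but only 15 were tested without Tom+ injured 3 or 4 and 2 over neutrophil-like cells, and all of those lost their call there. A call was also lost by 5 of 20 without Tom+ injured 2 and by 1 of 18 without the cells of 100 or more fibroblast UMIs. Without Tom-GFP+ injured 2 more of the named genes lost their call than without Tom+ injured 2. That setting leaves 1 library in the Tom-GFP+ group, so no count is given. With all 3 markers 10 were tested and kept theirs.

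Replicate numbers were shared by 2 pairs of libraries in each comparison, whose deviations correlated at -0.0614 (steady-state and injured Tom+) and 0.339 (Tom+ and Tom-GFP+ injured). The study speaks of matched mice without saying which libraries match, and with 2 pairs the numbers were not taken as pairs. With the replicate block the differences were 0.229 points for injury in Tom+ (exact permutation p = 1.0), -2.0 for lineage (p = 0.5 by exact permutation), and 59.1, -56.98 and -2.16 points for macrophage-like, neutrophil-like and unnamed cells; it sets Tom+ injured 1, with 3 immune cells, in place of Tom+ injured 3 and 4, and for the shares of kept cells the unpaired difference over the same libraries had the same value. No paired analysis was possible for the genes because the libraries with at least 5 immune cells share only number 2, and the comparison over macrophage-like cells alone was not run, as each Tom-GFP+ injured library held 1. With 2 to 11 immune cells in most libraries, depth and cell number limit each share.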
